A study of Mus musculus with 6 samples.

Results

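Omt2a and Omt2b, a pair of neighbouring oocyte genes, and the Tcl1 family, that is Tcl1 and Tcl1b1 to Tcl1b5, were followed in mouse 1-cell embryos. The 8 genes were chosen by symbol. All 8 had a row in the gene table, which held 36065 genes. Wild-type embryos were cultured in vitro with DMSO (the solvent control), with CBR-5884, an inhibitor of serine metabolism, or with both CBR-5884 and S-adenosylmethionine (SAM), from which methyltransferases take their methyl groups. The groups, called DMSO, CBR and CBR+SAM, have 2 biological replicates each per the labels, which gives 6 libraries in all. Doses, culture times, mouse strain, the number of embryos per library and a group given SAM alone are not given in the sources used here. Both CBR groups are compared with the same DMSO libraries.

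The mouse egg stores mRNA for the first cell cycle, when its own genome is almost silent, and the zygote inherits this store. Omt2a and Omt2b were named as transcripts of the maturing oocyte, and their products have no function stated here. TCL1 proteins are small beta-barrel proteins that bind the kinase AKT and raise its activity. TCL1 is best known as an oncogene of human T-cell leukaemia, and in the mouse its loss from the egg impairs the early cleavages. The Tcl1b genes are close copies of each other that are expressed in the egg and early embryo.

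Sequence identity limits how well copies can be told apart by reads, so it is given before the levels. The longest coding transcripts of Omt2a and Omt2b in GENCODE M21 were 91.5% identical over 707 aligned bases. The 5 Tcl1b transcripts were 86.9% to 93.4% identical over 991 to 1038 bases in their 10 pairs. Tcl1 aligned with none of them over more than 38 bases. Of the distinct 31-base words in the annotated transcripts of each gene, 57.7% were found in no other gene for Omt2a and 59.8% for Omt2b. The share was 70.8% for Tcl1b1, 66.6% for Tcl1b2, 52.5% for Tcl1b3, 87.6% for Tcl1b4 and 61.7% for Tcl1b5. For Tcl1 it was 100%. No word of these genes was shared with a gene outside the 8, so reads could be misplaced between Omt2a and Omt2b or among the Tcl1b genes, but Tcl1 shares no such word with any annotated transcript. A length of 31 is the usual setting of kallisto, and the setting used for these data is not given.

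The stretches before the RefSeq starts of the Omt2 pair are shown because the levels of this pair ran in parallel. They are 250 bases each, in GRCm38.p6, at chr9:78314049-78314298 on the minus strand for Omt2a and chr9:78327780-78328029 on the plus strand for Omt2b, 5′ to 3′. Capitals mark E-boxes (CANNTG, bound by FIGLA and other helix-loop-helix factors) and the element TAATTG (bound by the oocyte homeobox factor NOBOX), searched on both strands.
Omt2a: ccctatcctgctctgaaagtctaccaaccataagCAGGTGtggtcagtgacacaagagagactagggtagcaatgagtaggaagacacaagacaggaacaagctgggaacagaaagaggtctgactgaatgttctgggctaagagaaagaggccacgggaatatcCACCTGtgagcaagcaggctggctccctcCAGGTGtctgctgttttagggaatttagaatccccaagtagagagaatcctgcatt
Omt2b: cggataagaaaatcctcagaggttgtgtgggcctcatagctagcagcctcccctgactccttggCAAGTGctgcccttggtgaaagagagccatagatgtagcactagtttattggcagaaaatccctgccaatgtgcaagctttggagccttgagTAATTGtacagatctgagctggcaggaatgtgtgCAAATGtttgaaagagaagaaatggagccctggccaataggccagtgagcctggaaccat
Unlike the transcripts, these windows aligned over no more than 19 bases. Omt2a held 3 E-boxes and no TAATTG, and Omt2b 2 E-boxes and 1 TAATTG. Among 32817 mouse windows of the same length, 66.2% held CANNTG and 7.17% TAATTG. The first 50 bases after the RefSeq start of Omt2a were found whole in 0 of its 5 M21 transcripts, and those of Omt2b in 1 of 5. Both windows lie inside the span of the annotated gene, downstream of its outermost annotated start, and overlap 0 annotated exons, so other transcripts of both genes start farther upstream.

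The Tcl1b genes differ more than 10-fold in level and yet share their upstream sequence, so the proximal part is shown for 4 of them. All lie on the plus strand of chromosome 12, at chr12:105159596-105159676 for Tcl1b1, chr12:105146925-105147005 for Tcl1b2, chr12:105190935-105191015 for Tcl1b3 and chr12:105176250-105176330 for Tcl1b5. Capitals mark the runs of 22 and 25 bases that were identical in all 5 Tcl1b windows, Tcl1b4 included. The Tcl1b2 stretch also lies inside the span of its annotated gene.
Tcl1b1: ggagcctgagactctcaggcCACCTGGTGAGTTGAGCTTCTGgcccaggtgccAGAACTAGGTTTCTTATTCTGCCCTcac
Tcl1b2: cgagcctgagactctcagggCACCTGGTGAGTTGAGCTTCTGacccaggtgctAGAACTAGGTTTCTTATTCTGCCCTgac
Tcl1b3: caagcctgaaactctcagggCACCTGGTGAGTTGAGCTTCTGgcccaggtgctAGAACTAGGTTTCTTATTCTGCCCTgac
Tcl1b5: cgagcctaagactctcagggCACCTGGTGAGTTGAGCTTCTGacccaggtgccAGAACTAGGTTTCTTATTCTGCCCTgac
The first run opens with the E-box CACCTG, and a further E-box, CAGGTG, lies in the 11 lower-case bases between the runs. Each of the 5 genes held 2 or 3 E-boxes in its 250 bases, none held TAATTG or TATAAA, and TATAAA was present in 12.4% of all windows. Neither run was found upstream of any other gene in the RefSeq table, Tcl1 included. The 250 bases of the 5 genes were 91.7% to 99.2% identical over 108 to 237 aligned bases in their 10 pairs, whereas Tcl1 aligned with no other of the 8 over more than 30 bases.

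The table gave 1 normalized abundance per gene and library, on a scale that divides by transcript length. Levels are therefore set side by side between genes, but whether their transcripts entered the cDNA equally well was not tested. The values of a library summed to between 956209 and 1059424, and 11529 to 11873 genes reached 1 in each library. The sequencing depth was not stated with them. All 8 markers of the oocyte and zygote were present, with sums of 21064 to 26847. Tcl1 is also made by lymphocytes, but of 10 lymphocyte markers only 2 reached 1 in 2 or more libraries. Cd79b was at 0 in every library, and Cd3e, Cd79a and Rag1 stayed at or under 0.121. Ms4a1 was the exception, at 59.1 to 77.3, and made up most of that list's sum of 61.3 to 78.4. Red blood cell markers (6 genes) summed to at most 0.170. The 6 sperm markers summed to 11.5 to 16.3, mostly from Prm2 at 9.86 to 14.7, and Tnp1 was at 0 in every library. For the 6 markers of pluripotent cells the sum was 53.3 to 69.9. Most of it came from Nanog (22.6 to 33.5) and Esrrb (28.6 to 35.7), while Sox2 stayed at or under 0.288. Of the 10 cumulus cell markers, Serpine2 made up most of the sum of 237.1 to 616.0, Cyp19a1 stood at 8.14 to 13.6, and these were the only 2 to reach 1 in 2 or more libraries. Inha was at 0 throughout and Foxl2 at most 0.0129.

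Omt2b had the highest mean of all genes in the table and Omt2a the fifth highest. Omt2b stood at 15562 and 13099 (DMSO), 16917 and 15990 (CBR), and 15583 and 19382 (CBR+SAM), in the order of replicates 1 and 2. Omt2a stood at 10678 and 9100 (DMSO), 11624 and 10918 (CBR), and 10544 and 13380 (CBR+SAM). DMSO replicate 2 was the lowest library for both genes and CBR+SAM replicate 2 the highest, with 1.47-fold between these extremes for Omt2a and 1.48-fold for Omt2b. Dppa3, whose protein shields maternal DNA methylation in the zygote, followed Omt2b with a mean of 14793. Omt2a lay between Pttg1 (securin), with 12236, and Mphosph6, with 10507. Together the pair made up 2.32% to 3.09% of the summed abundance of a library.

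Omt2b (ENSMUSG00000038750) lies on chromosome 9 of mm10 at 78327589 to 78329620, on the plus strand. Omt2a (ENSMUSG00000066463) lies beside it on the minus strand, at 78311972 to 78314796. Both are protein-coding with 5 annotated transcripts, and no annotated gene overlaps them. Of the 15 other protein-coding genes within 250 kb, 7 had a mean of at least 10 and 5 a mean under 1. The highest was Ooep, a component of the subcortical maternal complex of the egg, at 1395. Gsta2, the gene next to Omt2b, averaged 1.00, and Dppa5a 104.2.

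Tcl1, the founding member of its family, ranked 13th in the table, next to Obox1 (mean 6238), a homeobox gene of the egg. Its level was 6646 and 6802 (DMSO), 7099 and 7721 (CBR), and 7461 and 4570 (CBR+SAM). The other libraries lay between 6646 and 7721, and CBR+SAM replicate 2 was below them, at 64.0% of their mean. No other gene of the 8 had its lowest value in that library, although Tcl1b5 came close. Tcl1 (ENSMUSG00000041359) lies on chromosome 12 at 105216750 to 105222793, on the minus strand, and has 6 annotated transcripts.

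The Tcl1b genes formed a descending series. Tcl1b1, ranked 46th, stood at 3299 and 3496 (DMSO), 3377 and 3923 (CBR), and 3681 and 3666 (CBR+SAM). Tcl1b2, ranked 91st, stood at 1675 and 1546, 1623 and 1853, and 1833 and 1694 in the same order. For both genes CBR replicate 2 was the highest library, and the whole range was 1.19-fold for Tcl1b1 and 1.20-fold for Tcl1b2. Tcl1b3, ranked 129th, stood at 1045 and 1105 (DMSO), 1007 and 1267 (CBR), and 1128 and 1251 (CBR+SAM). Tcl1b4, ranked 202nd, stood at 773.1 and 794.1, 719.3 and 883.3, and 773.1 and 773.3. CBR replicate 1 was the lowest and CBR replicate 2 the highest library for both Tcl1b3 and Tcl1b4. Tcl1b5, ranked 891st, stood at 188.3 and 160.2 (DMSO), 151.2 and 168.0 (CBR), and 224.7 and 151.7 (CBR+SAM). It was the least abundant of the 8 in every library, and CBR+SAM replicate 1 was its highest.

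**Figure D1:**
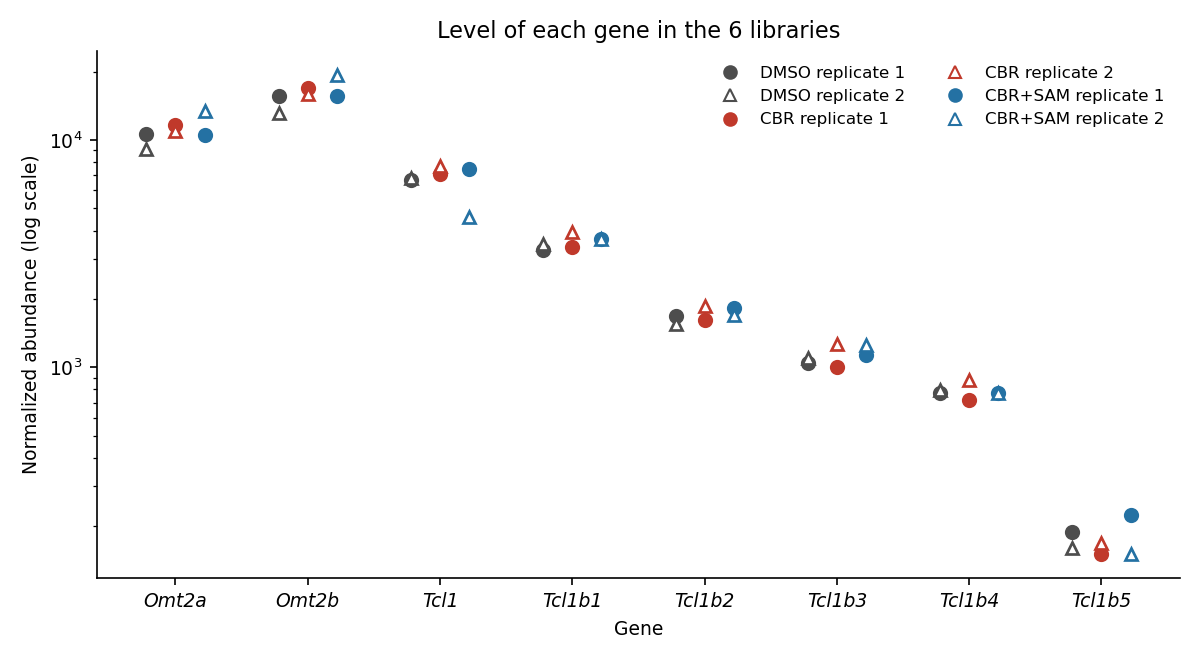
Normalized abundance (log scale) of the 8 genes in each library, with colour for the group, filled circles for replicate 1 and open triangles for replicate 2. The order of the genes is the same in all 6 libraries, and Tcl1 in CBR+SAM replicate 2, at 4570, lies apart from the other libraries at 6646 to 7721.

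The descending order Omt2b, Omt2a, Tcl1, Tcl1b1, Tcl1b2, Tcl1b3, Tcl1b4, Tcl1b5 held in 6 of 6 libraries at every step. Across libraries the ranges of neighbours in this order were separate except for the first step, where the lowest Omt2b value, 13099, was below the highest Omt2a value, 13380. Spread over the 6 libraries, as the SD in percent of the mean, was smallest for Tcl1b1 (6.41%), Tcl1b4 (6.84%) and Tcl1b2 (7.02%). It was 9.38% for Tcl1b3, 12.7% for Omt2b, 12.8% for Omt2a, 16.3% for Tcl1b5 and 16.7% for Tcl1. Without CBR+SAM replicate 2 the spread of Tcl1 was 6.26% and that of Omt2b 9.16%. All 8 genes together made up 3.78% to 4.28% of the summed abundance of a library.

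Tcl1b3 and Tcl1b5 have 1 annotated transcript each, which allows a rough estimate of the reads behind their values. The lowest values of other genes with 1 transcript fell on steps, and 79.1% to 83.3% of them lay within 0.1 of a whole number of steps. Read this way, Tcl1b5 rested on about 3150 to 5210 reads per library and Tcl1b3 on about 21100 to 30700. Counting error alone would be 1.39% to 1.78% for Tcl1b5 and 0.571% to 0.688% for Tcl1b3. The estimate covers counting error only and takes no account of reads shared with the copies.

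Within a library, Omt2a and Omt2b kept a nearly fixed proportion. Omt2a stood at 0.686 and 0.695 of Omt2b (DMSO), 0.687 and 0.683 (CBR), and 0.677 and 0.690 (CBR+SAM). The SD of this ratio was 0.907% of its mean, against the 12.8% and 12.7% of the single levels. Since 42.3% of the words of Omt2a are shared with Omt2b, the values of the pair also share how reads were divided between them, and the part of this in the fixed ratio was not tested.

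Among the Tcl1b genes the proportions were looser. Tcl1b1 over Tcl1b2 ran from 1.97 to 2.26, Tcl1b2 over Tcl1b3 from 1.35 to 1.63, Tcl1b3 over Tcl1b4 from 1.35 to 1.62, and Tcl1b4 over Tcl1b5 from 3.44 to 5.26. Tcl1b1 gave 0.473 to 0.492 of the sum of the 5 genes. That sum was 6980 and 7101 (DMSO), 6877 and 8095 (CBR), and 7640 and 7536 (CBR+SAM). Tcl1 alone was about as abundant as the 5 copies together, at 0.952 to 1.03 of their sum in 5 libraries, but at 0.606 in CBR+SAM replicate 2.

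**Figure D2:**
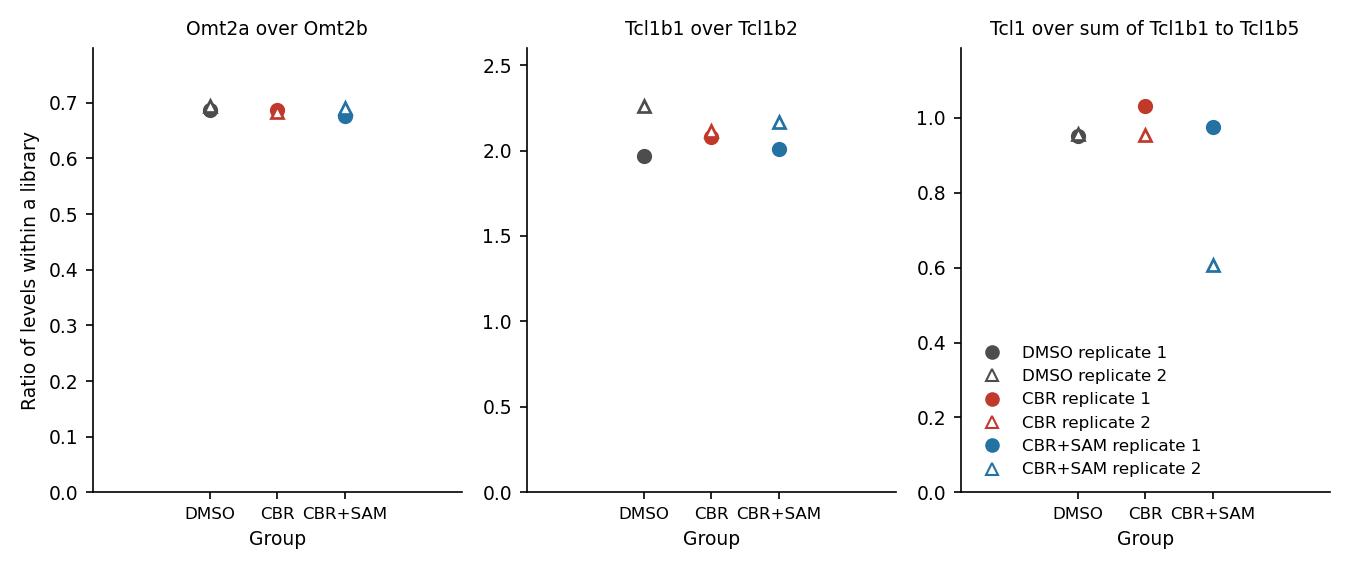
Ratio of 2 levels within each library, with the axis from 0, for Omt2a over Omt2b, Tcl1b1 over Tcl1b2, and Tcl1 over the sum of Tcl1b1 to Tcl1b5. Omt2a over Omt2b lies between 0.677 and 0.695 everywhere, and Tcl1 over the sum is 0.606 in CBR+SAM replicate 2 against at least 0.952 elsewhere.

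In the genome the 6 Tcl1 family genes occupy 76780 bases of chromosome 12 with no other protein-coding gene between them. Tcl1b2 lies at 105146014 to 105155225, Tcl1b1 at 105159690 to 105166625, Tcl1b5 at 105176344 to 105181145, Tcl1b3 at 105191043 to 105195612 and Tcl1b4 at 105201957 to 105206993, all on the plus strand. Tcl1 closes the row on the other strand. The least abundant gene, Tcl1b5, therefore lies between Tcl1b1 and Tcl1b3, and level did not follow position. Only 4 other protein-coding genes lie within 250 kb. Glrx5, a mitochondrial iron-sulfur cluster factor, averaged 140.02 and Syne3 1.40, while Tunar (0.0332) and D430019H16Rik (0.00476) were close to 0.

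**Figure D3:**
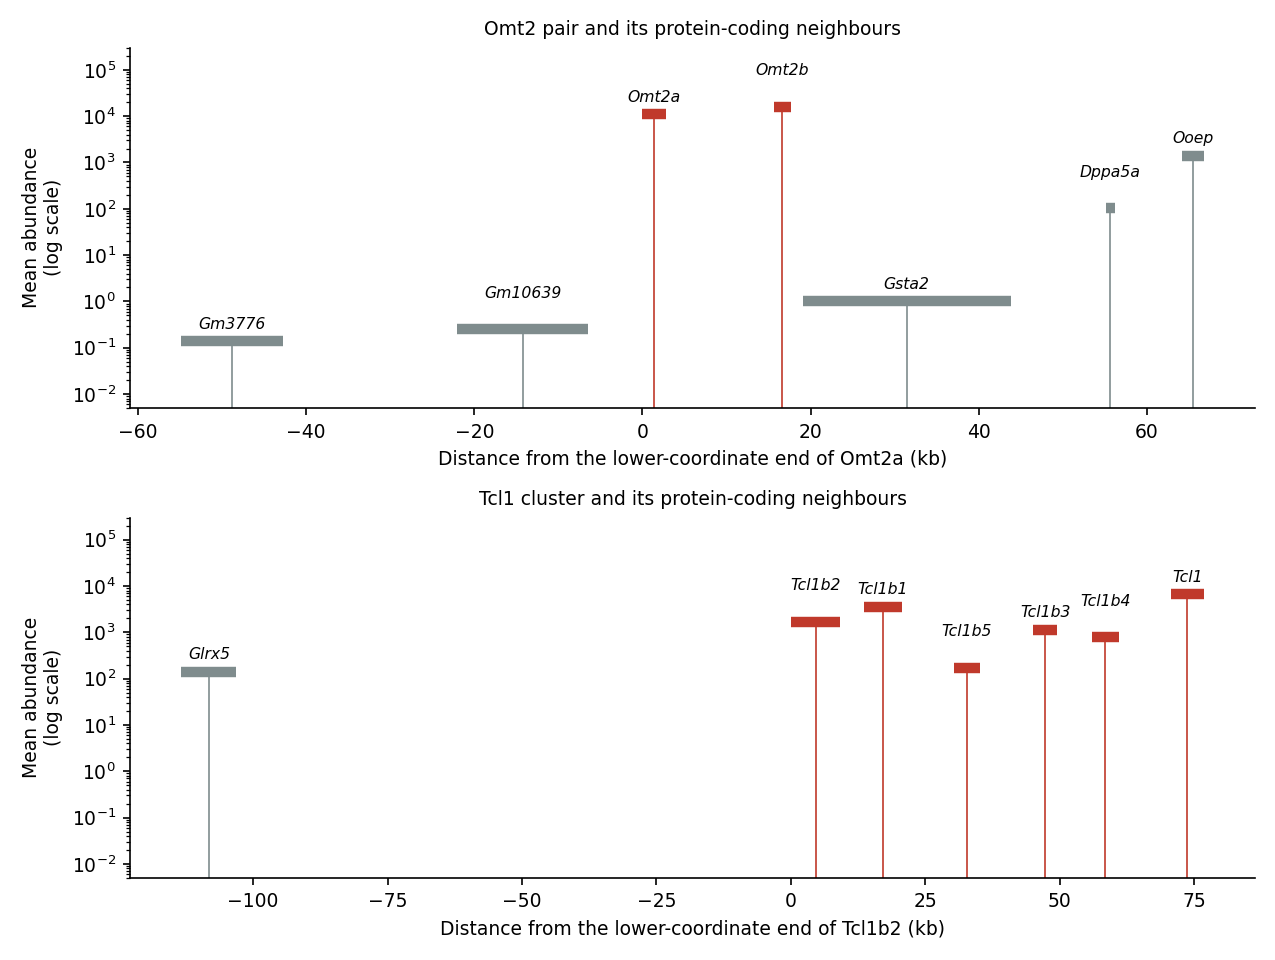
Position of the genes (bars, distance in kb) and their mean abundance over the 6 libraries (height, log scale) for the Omt2 pair and the Tcl1 cluster in red, with the nearest protein-coding neighbours in grey. The red genes stand at means of 174.02 to 16089, above the grey neighbours except Ooep (1395), whose mean exceeds those of Tcl1b3, Tcl1b4 and Tcl1b5.

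Whether the inhibitor alters these stored transcripts was examined by setting CBR against DMSO. The mean with CBR was 11271 ± 499.2 against 9889 ± 1116 with DMSO for Omt2a. It was 16453 ± 655.7 against 14330 ± 1741 for Omt2b, and 7410 ± 440.1 against 6724 ± 110.8 for Tcl1 (SD, n = 2 each). Fitted log2 changes were 0.19 (95% interval -0.22 to 0.60) for Omt2a, 0.20 (-0.21 to 0.61) for Omt2b and 0.14 (-0.41 to 0.68) for Tcl1. The Tcl1b genes had log2 changes from -0.12 (Tcl1b5, -0.62 to 0.37) to 0.11 (Tcl1b2, -0.23 to 0.45). None of the 8 passed (limma with Benjamini-Hochberg adjustment over 12249 genes, adjusted p = 1.00 for each), where 0% of all genes passed. At an unadjusted p under 0.05 there were 0 of the 8 and 260 of all genes. Each CBR library lay above both DMSO libraries for Omt2a, Omt2b and Tcl1, and the groups overlapped for the other 5. Across all genes tested 33% had groups that did not overlap, and 15.7% had CBR higher, beside 3 of 8 here. The Omt2 pair ran in parallel, so these are not 3 separate observations. Taken as a share of the library sum, both CBR libraries still lay above both DMSO libraries for all 3. Omt2a, for example, made up 1.17% and 1.09% (CBR) and 1.08% and 0.952% (DMSO). The share of all genes apart on that scale was not counted. Without DMSO replicate 2 the changes were 0.077 for Omt2a, 0.080 for Omt2b and 0.16 for Tcl1. Without DMSO replicate 1 they were 0.31, 0.33 and 0.12. In bulk samples, fewer embryos and less RNA per embryo cannot be told apart, and a level is relative to the rest of the library.

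Adding SAM to the inhibited embryos gave no difference past the test either. Against CBR, Omt2a had a log2 change of 0.076 (95% interval -0.34 to 0.49), Omt2b one of 0.080 (-0.33 to 0.49) and Tcl1 one of -0.34 (-0.89 to 0.20). Tcl1b1 to Tcl1b4 lay between -0.044 and 0.073, and Tcl1b5 at 0.21 (-0.28 to 0.71). Adjusted p by limma was 0.988 to 0.995 for the 8 genes, and 0.00816% of all genes passed, that is the pseudogene Gm16550 alone (log2 change 3.24, adjusted p = 0.0098). The groups overlapped for all 8, against 27.5% of all genes with groups apart. The change of Tcl1 rested on CBR+SAM replicate 2: without that library it was 0.011, and without CBR+SAM replicate 1 it was -0.70. The latter has an adjusted p of 0.0976 (limma), but it sets the 1 deviating library alone against CBR, assumed to vary like the other groups. For the Omt2 pair the sign also depended on that library, with -0.096 for Omt2a and -0.078 for Omt2b in its absence.

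CBR+SAM embryos were also set beside the DMSO embryos. Omt2a had a log2 change of 0.27 (95% interval -0.14 to 0.68) and Omt2b one of 0.28 (-0.13 to 0.69), with means of 11962 ± 2006 and 17482 ± 2686 in CBR+SAM. Without CBR+SAM replicate 2 these changes were 0.097 and 0.13, without DMSO replicate 2 they were 0.15 and 0.16, and over all libraries left out in turn both reached up to 0.44. Tcl1 had a log2 change of -0.20 (-0.75 to 0.34), with a mean of 6016 ± 2044, and of 0.15 without CBR+SAM replicate 2. The Tcl1b genes lay between -0.019 (Tcl1b4) and 0.14 (Tcl1b3). No member passed (adjusted p = 1.00 by limma for each), against 0.00816% of all genes. Both CBR+SAM libraries lay above both DMSO libraries for Omt2b, Tcl1b1, Tcl1b2 and Tcl1b3, so 4 of 8. Of all genes, 24.5% had groups apart in either direction and 12.4% had CBR+SAM higher. The Tcl1b genes share words, so these are not 4 separate observations. As a share of the library sum the groups overlapped for each of the 4, and the share of all genes apart on that scale was not counted. Omt2b, for example, made up 1.58% and 1.37% (DMSO) and 1.56% and 1.83% (CBR+SAM).

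Copies were also fitted as sums, which depend less on how reads were divided among them. The Omt2 sum had log2 changes of 0.20 (95% interval -0.22 to 0.62) for CBR against DMSO, 0.078 (-0.34 to 0.50) for CBR+SAM against CBR and 0.28 (-0.14 to 0.70) for CBR+SAM against DMSO. For the Tcl1b sum they were 0.084 (-0.26 to 0.43), 0.024 (-0.32 to 0.37) and 0.11 (-0.24 to 0.46). In all 3 comparisons of the main fit the 95% interval of each of the 8 genes lay within a log2 change of 1 in either direction. This is a doubling or halving, and smaller changes are not excluded. For CBR+SAM against CBR the standard error of Tcl1 was 0.23 in the main fit and 0.28 without the filter on low values. For CBR+SAM against DMSO the standard error of the Omt2 sum was 0.18 and 0.30 in these fits. A halving of Tcl1 and a doubling of the Omt2 sum are therefore not excluded under every setting.

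**Figure D4:**
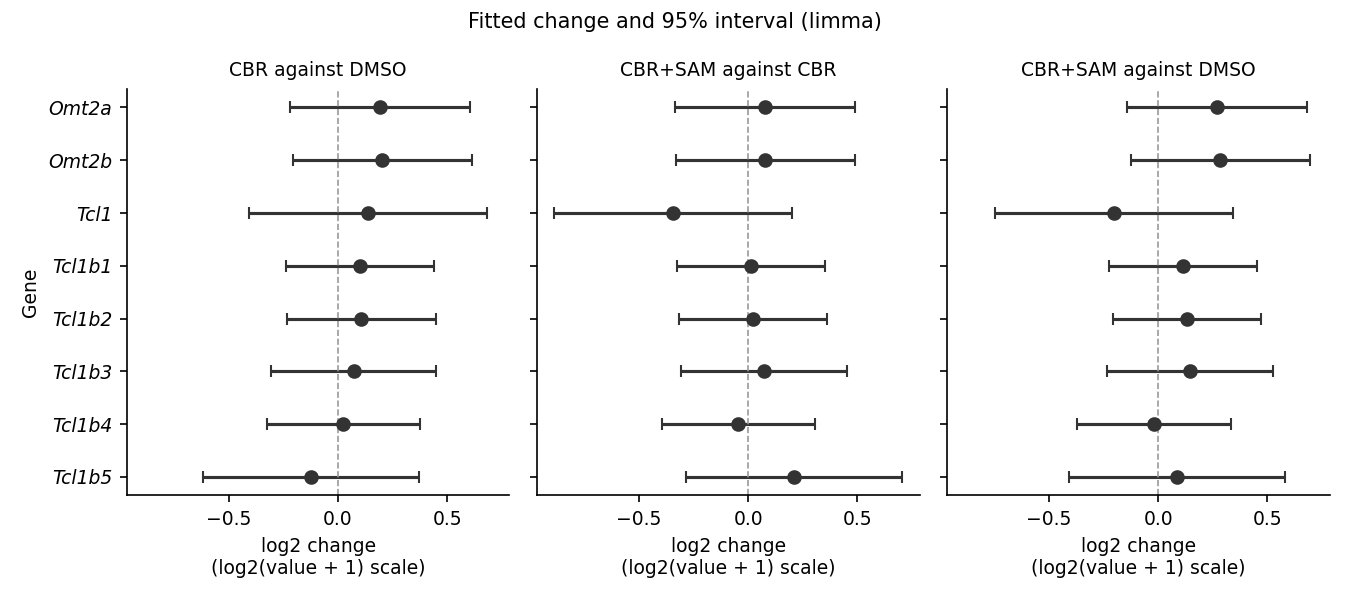
Fitted log2 change (points, log2(value + 1) scale) with its 95% interval for the 8 genes in the 3 comparisons, from limma over all genes. Every interval includes 0, and the widest belong to Tcl1, for example -0.89 to 0.20 for CBR+SAM against CBR.

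CBR+SAM replicate 2, the library in which Tcl1 was low and the Omt2 pair high, differed from its partner across the table. On the log2 scale its value over that of replicate 1 was -0.71 for Tcl1, -0.56 for Tcl1b5, 0.34 for Omt2a and 0.31 for Omt2b, while Tcl1b1 to Tcl1b4 lay between -0.11 and 0.15. The SD of this difference was 0.538 over the 5939 genes whose mean reached 10, and 387 of them were lower than Tcl1. The difference also went with transcript length. Its median in CBR+SAM was 0.39 for protein-coding genes whose longest transcript has under 800 bases (195 genes), 0.083 from 800 to 1600 bases and -0.10 from 1600 to 3200 bases. It was -0.091 from 3200 to 6400 bases and -0.082 above that. In the order of rising length the 5 medians were 0.051, 0.020, 0.010, -0.010 and 0.0040 in DMSO and 0.045, 0.097, 0.044, -0.0084 and -0.038 in CBR. The longest annotated transcripts of the 8 genes measure 1040 to 1465 bases, so all fall in the second bin. The longest coding transcript of Omt2b has 735 bases, and by that length Omt2b would fall in the first bin. The part of length in the values of the 8 genes was not tested. The cumulus cell gene Serpine2 stood at 224.5 in this library against 495.7 to 602.0 in the others. Cyp19a1, another marker of that list, was not low there, at 11.9 within a range of 8.14 to 13.6. The part of cumulus cells in these values was not tested. Among the 200 most abundant genes 21 differed by less than -0.5 and 34 by more than 0.5, and Tcl1 was 12th from the lowest.

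**Figure D5:**
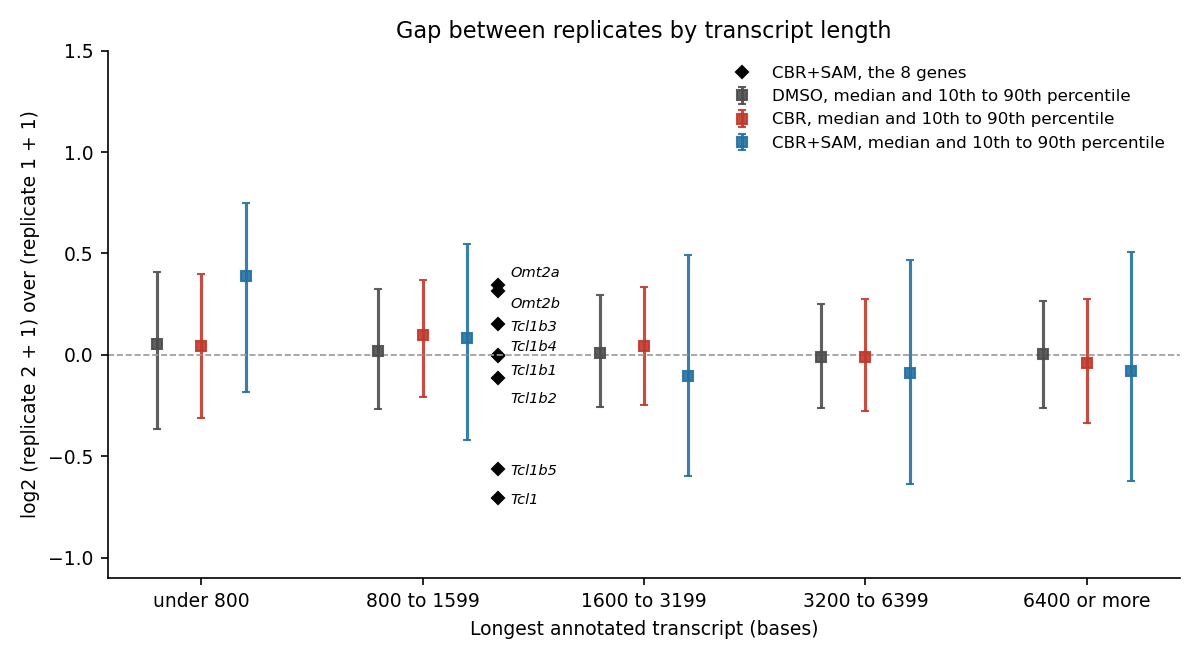
Difference between replicates, log2 of replicate 2 over replicate 1 after adding 1, for protein-coding genes whose mean reached 10, in bins of transcript length (squares for the median, bars from the 10th to the 90th percentile), with the 8 genes in CBR+SAM as diamonds. The CBR+SAM median falls from 0.39 in the shortest bin to -0.10 in the third, and Tcl1 (-0.71) and Tcl1b5 (-0.56) lie below the bar of their bin while Omt2a and Omt2b lie within it.

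Genes of the PI3K and AKT pathway, the one in which TCL1 proteins act, were examined from a list of 47, of which 38 were high enough to test. In each of the 3 comparisons 0 of the 38 passed in either direction (limma with Benjamini-Hochberg adjustment), and 0 reached an unadjusted p under 0.05. The list's median log2 change was 0.019 for CBR against DMSO, 0.043 for CBR+SAM against CBR and 0.061 for CBR+SAM against DMSO, beside medians of all genes of -0.0074, 0.014 and -0.0048. Positive changes numbered 22, 21 and 23 of the 38. The kinase genes Akt1 and Akt2 were low, with means of 7.76 and 3.66, each far below the 6717 of Tcl1. The highest of the list were Tsc2 (328.7), which restrains mTOR signalling, Mapkap1 (254.8), a subunit of the mTORC2 complex that phosphorylates AKT, and the oocyte kinase Wee2 (217.6). Pdpk1, the kinase that activates AKT, had the smallest p of the list for CBR+SAM against CBR. It stood at 43.0 and 43.5 with CBR and at 38.1 and 24.7 with CBR+SAM, a log2 change of -0.48 (95% interval -0.98 to 0.020, adjusted p = 0.988 by limma), and its low value was again in CBR+SAM replicate 2. For CBR against DMSO the smallest p belonged to Mapkap1, with a log2 change of 0.24 (-0.13 to 0.60). For CBR+SAM against DMSO it belonged to Tsc2, with a log2 change of 0.37 (-0.13 to 0.87) and its highest value, 436.8, in CBR+SAM replicate 2 as well.

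A list of 51 genes of the oocyte, not all restricted to it, served as the other background, with 50 tested. It shares Wee2 with the PI3K and AKT list. Here too 0 passed in any comparison, and 0 reached an unadjusted p under 0.05. Of the 50, 18 had positive changes for CBR against DMSO (median log2 change -0.037), 28 for CBR+SAM against CBR (0.055) and 26 for CBR+SAM against DMSO (0.0041). Of the 8 Omt2 and Tcl1 family genes, 7, 6 and 6 had positive changes in these comparisons, with medians of 0.10, 0.048 and 0.12, beside 48.3%, 52.4% and 49% of all genes. With library sums made equal the counts were 6, 4 and 6. That scaling also moved the medians of all genes, from -0.0074, 0.014 and -0.0048 to -0.044, -0.021 and -0.077. The share of all genes with positive changes under it was not counted. The 8 genes are not independent of each other. Fbxw28, an oocyte F-box gene and the most abundant of the list after Dppa3, had a mean of 7697 and a log2 change of 0.059 (95% interval -0.33 to 0.45) for CBR against DMSO. Btg4, the adaptor that recruits deadenylase to maternal mRNA, had a mean of 5978 and a log2 change of 0.025 (-0.36 to 0.41). The smallest p of the list belonged to Khdc3, a member of the subcortical maternal complex, for CBR against DMSO (log2 change -0.34, -0.74 to 0.052), to Oog2 for CBR+SAM against CBR (0.28, -0.072 to 0.62) and to Nlrp9b for CBR+SAM against DMSO (-0.32, -0.71 to 0.057).

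The genes most like the members across the 6 libraries were sought among 5473 named genes whose mean reached 10. The measure is Pearson's r of log2(value + 1), a description over points that share groups, scaling and the deviating library. Snrpg, a core spliceosome protein gene, was among the 3 most alike for both Omt2b (r = 0.978) and Omt2a (r = 0.986), and ran from 909.0 in DMSO replicate 2 to 1393 in CBR+SAM replicate 2. For Omt2b the others were Ankrd13c (0.980) and Ube2e1 (0.978), and for Omt2a Tent2 (0.983), a cytoplasmic poly(A) polymerase gene, and Serf2 (0.981). Tcl1 was most like Rab18 (0.999), the ribosome biogenesis kinase gene Riok1 (0.998) and Cfap298 (0.996). Riok1 stood at 714.3 to 837.2 in 5 libraries and at 503.6 in CBR+SAM replicate 2. In all, 264 of the 5473 genes had r above 0.95 with Tcl1, against 18 with Omt2b and 24 with Omt2a. The r values with Tcl1 rest largely on its low value in CBR+SAM replicate 2. The sum of the Tcl1b genes was most like Lpl (0.982), Sgk1 (0.980) and Samd10 (0.973), and 8 genes had r above 0.95 with it.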

How the data were processed

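The 8 genes, the gene lists and the tests were chosen with earlier results of these data known. The labels' protocols name SMART-Seq v4 for the cDNA and Nextera XT for the libraries, and describe neither strand marking nor molecular identifiers. Tools and build in the submitters' processing notes are kallisto, fastp, DESeq2 and mm10, without versions, roles or settings. The authors deposited 1 signal value per gene and library, close to the TPM of kallisto but with sums of 956209 to 1059424, so a further scaling not given in the sources used here had been applied. These are not counts, and no count test was run. Of 36065 Ensembl identifiers 35820 matched a symbol in GENCODE M21, which is on mm10.

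Values were taken as log2(value + 1), and 12249 genes that reached 1 in 2 or more libraries were fitted over the 3 groups with limma 3.58.1 in R 4.3.3 (mean-variance trend, 3 residual degrees of freedom), with Benjamini-Hochberg adjustment within each comparison and a threshold of 0.05. The labels call the replicates biological, and a p-value here reflects how these libraries vary. All 8 genes passed the filter in every library. Depth was estimated from the steps of low values of genes with a single transcript of over 1500 bases. The fit was checked on simulated data. Upstream sequences are those of RefSeq on GRCm38.p6, and all 8 genes matched; protein sequences were not used here. Stretches within an annotated UTR are not printed. Sequences were aligned locally with Biopython 1.88. Named genes are the 8, the 3 genes most alike by r, protein-coding neighbours, genes ranked beside the most abundant members, and, of each list, the 3 with the highest mean and those with the smallest p. Akt1, Akt2 and markers were named beyond this rule after their values were seen. Alternatives were the pseudocount, filters, scalings, a replicate block, the compared groups alone and each library left out.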

Additional observations from a re-analysis of the deposited data

How the results depend on the processing

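The log2 changes of the 8 genes and of the Omt2 and Tcl1b sums were refitted under the other settings, which gave 390 values. None of these values had an adjusted p under 0.05 (limma). A fit that leaves 1 library in a group assumes that this group varies like the others. A filter, the block or the compared groups alone cannot move a log2 change. Of the 90 values under another pseudocount or scaling, 7 changed sign, namely Tcl1b4 for CBR against DMSO at -0.017 with library sums made equal, and, for CBR+SAM against CBR, Tcl1b1 (-0.028 with equal sums and -0.026 with median ratio scaling), Tcl1b2 (-0.018 and -0.016) and the Tcl1b sum (-0.017 and -0.015). Of the 120 values with a library of the compared groups left out, 20 changed sign. For CBR against DMSO the values ran from -0.0080 to 0.21 for Tcl1b1, -0.094 to 0.24 for Tcl1b3, -0.12 to 0.17 for Tcl1b4 and -0.034 to 0.20 for the Tcl1b sum. For CBR+SAM against CBR they ran from -0.096 to 0.25 for Omt2a, -0.078 to 0.24 for Omt2b, -0.085 to 0.24 for the Omt2 sum, -0.70 to 0.011 for Tcl1, -0.095 to 0.12 for Tcl1b1, -0.073 to 0.12 for Tcl1b2, -0.093 to 0.24 for Tcl1b3, -0.19 to 0.10 for Tcl1b4, -0.070 to 0.49 for Tcl1b5 and -0.093 to 0.14 for the Tcl1b sum. For CBR+SAM against DMSO they ran from -0.56 to 0.15 for Tcl1, -0.038 to 0.000157 for Tcl1b4 and -0.19 to 0.37 for Tcl1b5, and from 0.097 to 0.44 for Omt2a and 0.13 to 0.44 for Omt2b. The cause of these shifts was not tested.

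Genes called among all genes numbered 0, 1 and 1 in the 3 comparisons. The first was 1 with the compared groups alone and 0 to 2 without 1 library. The second and the third were 0 each with a pseudocount of 0.1, without a filter on low values and over genes whose mean reached 10. With 1 library left out they were 0 to 8 and 0 to 3. With the replicate number as a block, the lowest adjusted p of the 8 genes was 1.00, 0.903 and 1.00 (limma), and the genes at an unadjusted p under 0.05 went from 260, 378 and 262 to 357, 554 and 340. The labels do not say that a number marks a shared batch, and deviations of libraries with the same number correlated across genes at 0.60 for DMSO and CBR, 0.26 for DMSO and CBR+SAM and 0.12 for CBR and CBR+SAM. With 2 libraries per group, the 95% interval of a gene whose mean reached 10 extended by a median of 0.43 log2 to either side.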
